A study of Mus musculus with 13 samples.

Results

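The Hedgehog genes described here are the ligand Shh, its receptor Ptch1, the signal transducer Smo, the coreceptor Gas1, the ligand-binding inhibitor Hhip, the transcription factors Gli1, Gli2 and Gli3, and the target Foxf1. They were chosen by gene symbol, as the probe sets annotated with 1 of these symbols and no other, and they make up 9 of 15019 genes tested and 23 of 45037 probe sets. Each gene is represented by its brightest probe set, and the others serve as a check. The arrays, of the Affymetrix MOE430 type, measured the bladder (3 arrays, replicates 2, 6 and 8), the urethra (3 arrays, replicates 1, 2 and 6) and the urogenital sinus (4 arrays, replicates 1, 2, 6 and 7) of mouse embryos at embryonic day 14. A further 3 arrays measured a newborn reference RNA. The embryos came from FVB/N females mated to males that carried the SMGA/EGFP transgene, in which regulatory sequence of the smooth muscle gamma-actin gene Actg2 drives a green fluorescent protein, and their sex is given as unknown. Bladder and urethra were cut out by their fluorescence, and the urogenital sinus as the dark stretch between them. The newborn reference came from wild-type FVB/N mice at postnatal day 1, taken whole and pooled from 4 males and 4 females, so it differs from the regions in tissue, age and genotype together. By Theiler stage, the arrays numbered 1 and 2 are from stage 21 embryos and those numbered 6 to 8 from stage 22. The region samples were not pooled. Whether each array stands for an embryo of its own is not stated, so the p-values reflect how much these samples differed among themselves, which may be technical. The comparisons ask where in the lower urinary tract each step of the pathway was high, and how the regions stood against the newborn reference.

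In Hedgehog signalling a secreted ligand binds Ptch1, which otherwise holds Smo inactive, and active Smo lets the Gli proteins switch on target genes. Ptch1, Hhip and Gli1 are themselves targets in many tissues, so their RNA is widely used as a readout of the signal, while Gas1 RNA is lowered by the signal in some embryonic tissues of the mouse. In the embryonic bladder and urogenital sinus, Shh is made by the epithelium, and the surrounding mesenchyme, the source of smooth muscle, receives it.

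Levels are log2 intensities of single probe sets, which cannot be set against those of another gene, and differences are log2 differences with their standard error (SE). A gene is called when its limma p-value, adjusted over all 15019 genes, is under 0.05. The fluorescent dissection was visible in Actg2, which averaged 13.67 ± 0.26 in the bladder (SD, n = 3), 13.31 ± 0.39 in the urethra (n = 3) and 9.26 ± 1.15 in the urogenital sinus (n = 4). The bladder stood above the sinus by 4.41 (SE 0.54, adjusted p = 0.00552), and the urethra by 4.05 (SE 0.54, adjusted p = 0.0827), which was not called. The mean of 6 urothelial genes ran from 9.68 to 10.75 in the bladder, 8.20 to 8.77 in the urethra and 8.14 to 9.86 in the sinus. Genes of the intestinal epithelium, which a wider cut could have included, averaged 6.10 to 7.05 on the region arrays, and 3 of the 5 lay under the filter level of 7.39 on every array of each region. The median of an array ran from 142 to 238 for the bladder, 221 to 378 for the urethra, 259 to 389 for the sinus and 278 to 455 for the newborn reference, in units of intensity. The log2 ratio of 3' to 5' Gapdh control signal, which grows as RNA or its amplified copy gets shorter, varied as well. In the same order of groups it was 4.26 to 5.26, 2.71 to 4.59, 2.92 to 4.83 and 4.18 to 4.48. For actin it was highest on bladder replicate 8 (4.04), urethra replicate 1 (3.42) and newborn replicate 1 (3.01), against 1.21 to 2.72 elsewhere. Its part in the differences between groups was not tested. The sample titles are written in 3 styles: one holds all urethra arrays, and the others hold the bladder and sinus arrays. Whether a style marks a batch is not stated, so within the deposited arrays region and title style cannot be told apart for the urethra except through the newborn arrays, of which each style holds 1.

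Promoter windows from 250 bases before to 50 bases after an annotated start were at hand for 6 of the 9 genes (RefSeq, mouse assembly GRCm38.p6): Gas1, Gli2, Gli3, Hhip, Ptch1 and Smo. Those of Ptch1 and Gli2 lie wholly within the gene spans, which reach chr13:63573460 and chr1:119054405. They thus surround a start inside the gene and not its outermost one. Those of Hhip, Ptch1 and Gas1 are shown because these 3 genes, 1 inhibitor, 1 receptor and 1 coreceptor, behave differently in the comparisons that follow. Each is printed on the gene's own strand with every CpG dinucleotide in capitals.
Hhip, chr8:80057959-80058258, minus strand: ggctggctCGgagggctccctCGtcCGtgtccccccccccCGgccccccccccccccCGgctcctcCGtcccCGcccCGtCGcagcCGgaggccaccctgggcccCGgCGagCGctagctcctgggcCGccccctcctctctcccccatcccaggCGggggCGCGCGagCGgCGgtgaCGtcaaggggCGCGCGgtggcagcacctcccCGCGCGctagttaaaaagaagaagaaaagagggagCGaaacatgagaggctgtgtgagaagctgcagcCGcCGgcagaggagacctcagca
Ptch1, chr13:63565686-63565985, minus strand: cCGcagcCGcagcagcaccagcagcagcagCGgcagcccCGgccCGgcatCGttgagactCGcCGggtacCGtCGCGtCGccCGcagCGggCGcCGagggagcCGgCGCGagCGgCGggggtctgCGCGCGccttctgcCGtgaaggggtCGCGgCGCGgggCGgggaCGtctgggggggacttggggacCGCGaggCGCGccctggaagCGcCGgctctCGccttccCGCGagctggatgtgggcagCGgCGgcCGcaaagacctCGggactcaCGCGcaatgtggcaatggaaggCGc
Gas1, chr13:60177486-60177785, minus strand: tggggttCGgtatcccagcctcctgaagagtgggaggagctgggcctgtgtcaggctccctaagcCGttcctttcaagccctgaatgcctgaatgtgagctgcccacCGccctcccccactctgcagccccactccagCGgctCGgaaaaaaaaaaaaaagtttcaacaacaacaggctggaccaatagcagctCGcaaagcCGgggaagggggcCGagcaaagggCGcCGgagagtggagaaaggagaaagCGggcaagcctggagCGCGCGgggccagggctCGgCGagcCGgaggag
The Ptch1 window held 47 CpG dinucleotides, that of Hhip 30 and that of Gas1 17, against a median of 7 over the 32851 windows of all genes. Gli3 had 39, Gli2 28 and Smo 17, so each of the 6 windows was richer in CpG than the median window. The Gli binding motif GACCACCCA, sought on both strands, was in 0 of the 6 windows, and in 0 of the 6 with up to 1 mismatch. Over the windows of all genes, 0.253% held the exact motif and 6.74% held it with up to 1 mismatch, so the absence from 6 short windows says only that these letters are not in them.

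**Figure D1:**
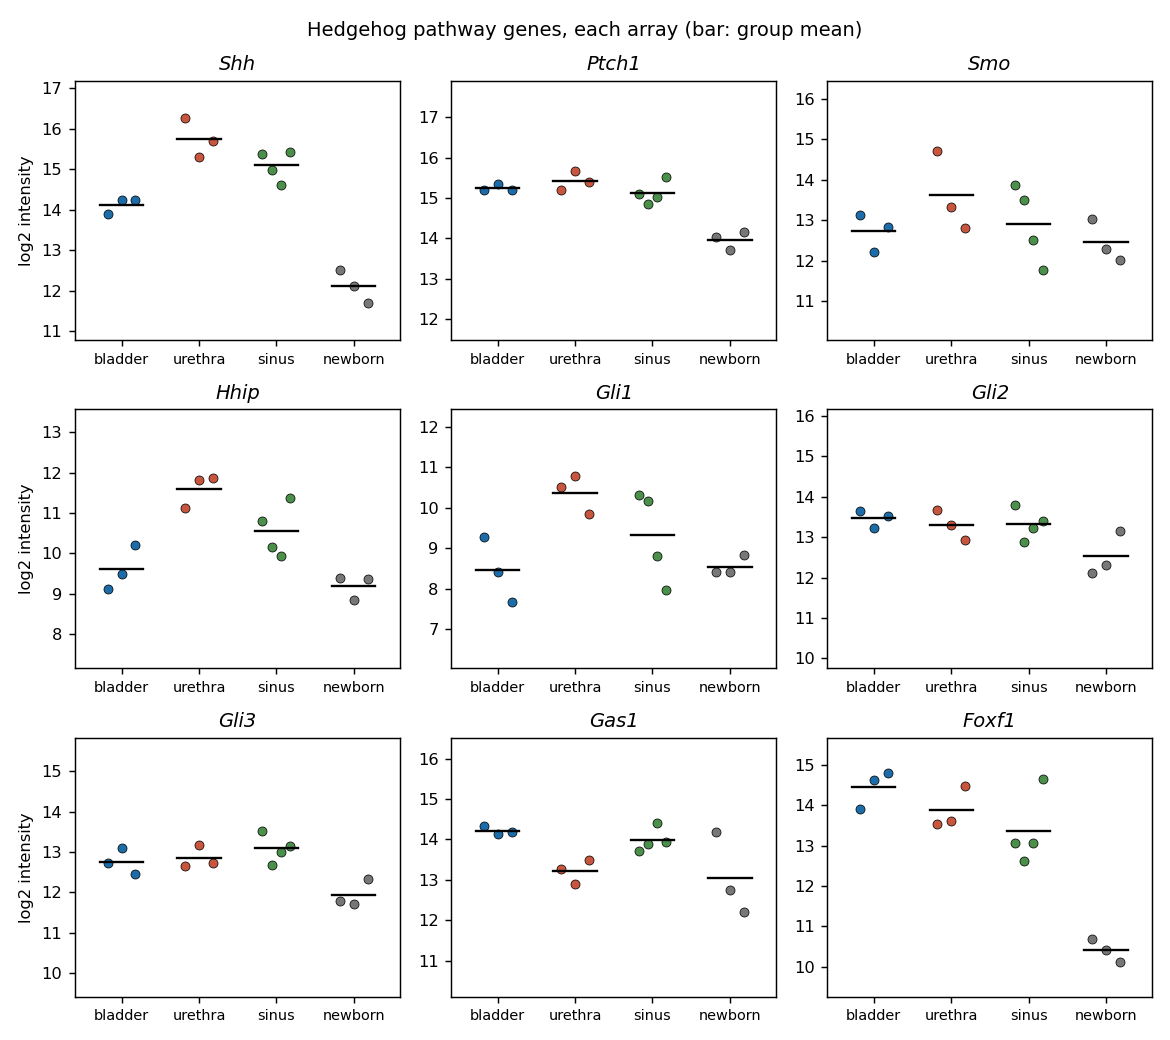
Log2 intensity of the main probe set of each of the 9 genes on every array, by group (bladder, urethra, urogenital sinus, newborn reference), where each point is 1 array and the bar is the group mean. Each panel has its own vertical position but the same span of log2 units. Shh, Ptch1 and Foxf1 lie above the newborn arrays on every region array, and Shh and Hhip are higher on every urethra array than on any bladder array.

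Shh was lowest in the bladder among the 3 regions and highest in the urethra, and every region stood above the newborn reference. Its log2 intensity was 13.90, 14.24 and 14.24 on the bladder arrays, 16.28, 15.31 and 15.69 on the urethra arrays, 15.38, 14.98, 14.61 and 15.42 on the sinus arrays, and 12.52, 12.12 and 11.69 on the newborn arrays. The bladder arrays lay under every other region array, while those of the urethra and the sinus overlapped. In bulk tissue, fewer Shh-producing cells and less Shh RNA per cell cannot be told apart. Bladder Shh was lower than urethra Shh by a log2 difference of -1.63 (SE 0.30, 95% interval -2.30 to -0.97, adjusted p = 0.0202), or 3.10-fold. Against the sinus the bladder differed by -0.97 (SE 0.28, 95% interval -1.60 to -0.35, adjusted p = 0.108), which was not called although the arrays did not overlap. The urethra differed from the sinus by 0.66 (SE 0.28, 95% interval 0.04 to 1.28, adjusted p = 0.466). In the order urethra, sinus, bladder, only the ends were thus told apart by the test.

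The call between bladder and urethra held in 13 of 21 other settings and the difference stayed negative in all 21, between -2.25 and -1.16. It was lost on leaving out bladder replicate 2, 6 or 8 (adjusted p = 0.0789, 0.0790 and 0.0609) or urethra replicate 1 or 6 (adjusted p = 0.0605 and 0.0507), and when arrays were centred on their medians (-1.16, adjusted p = 0.204), a step that moved the median difference of all genes by 0.47. With title style as a block, Shh differed by -2.25 (adjusted p = 0.121). That block links bladder and urethra only through the newborn arrays, 1 per style.

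Shh differed from the newborn reference in each region. The difference was 2.02 in the bladder (SE 0.42, adjusted p = 0.00933, 4.05-fold), 3.65 in the urethra (SE 0.42, adjusted p = 0.000283, 12.6-fold) and 2.99 in the sinus (SE 0.41, adjusted p = 0.000831, 7.95-fold). All 3 calls held in 23 of 23 other settings. A further Shh probe set exceeded the filter level on 2 of 13 arrays and was not kept. It read 5.65 to 6.05 in the bladder, 6.84 to 6.96 in the urethra, 5.66 to 7.22 in the sinus and 6.37 to 7.72 in the newborn reference, so its bladder arrays lay below its newborn arrays.

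The mean of a list of epithelial genes moved with Shh between the regions. The mean of 15 epithelial genes, all tested, ran from 10.51 to 11.01 in the bladder, 12.07 to 13.26 in the urethra and 11.52 to 12.34 in the sinus. The bladder arrays lay under all others here too. Of the 15 genes, 4 were lower in the bladder than in the urethra, 0 higher and 11 not called, against 4.33% of all genes called. Shh minus this mean was 2.89, 3.42 and 3.74 on the bladder arrays, 3.02, 3.24 and 2.88 on the urethra arrays, and 3.34, 2.63, 3.09 and 3.70 on the sinus arrays. On that scale the 3 regions overlapped. The newborn arrays, at 0.71, 0.49 and -0.05, lay under every region array, with an epithelial mean of 11.63 to 11.80 that overlapped that of the sinus. The gap between bladder and urethra was uneven across the list. Krt8 averaged 14.41 in the bladder and 14.65 in the urethra, and Krt5 8.02 and 13.07. The list mean is thus not a measure of the amount of epithelium alone. The part of epithelial content in the Shh difference was not tested.

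**Figure D2:**
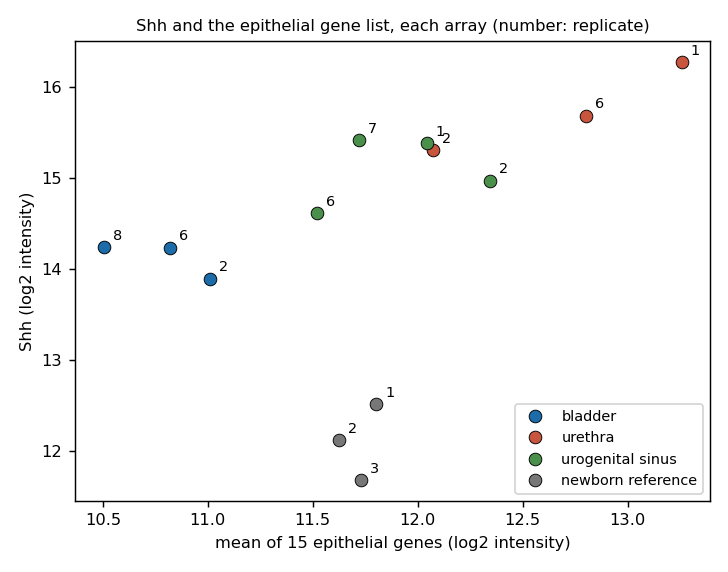
Shh log2 intensity (vertical) against the mean log2 intensity of 15 epithelial genes (horizontal), with 1 point per array coloured by group and labelled with its replicate number. The bladder arrays are low on both axes and the urethra arrays reach the highest values on both, while the newborn arrays have epithelial means of 11.63 to 11.80 but Shh of 11.69 to 12.52.

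Of the 9 genes, 3 were called between bladder and urethra, 1 higher and 2 lower, against 4.33% of all genes tested, and 4 did not overlap between these groups, against 34.5%. In the comparison of bladder with urogenital sinus 0 were called, against 2.54% of all genes; limma gave 3 an unadjusted p under 0.05, against 17.2% (2588) of all genes, and 1 did not overlap, against 17.9%. Between urethra and sinus 0 were called, against 0.0133% of all genes; 3 had an unadjusted p under 0.05, against 10.4% (1559), and 1 did not overlap, against 8.22%. The median difference of the 9 genes was -0.17 for bladder minus urethra, -0.19 for bladder minus sinus and 0.53 for urethra minus sinus. Over all genes these medians were -0.25, -0.19 and 0.05. The 3 comparisons share arrays, so their values are not independent of each other.

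**Figure D3:**
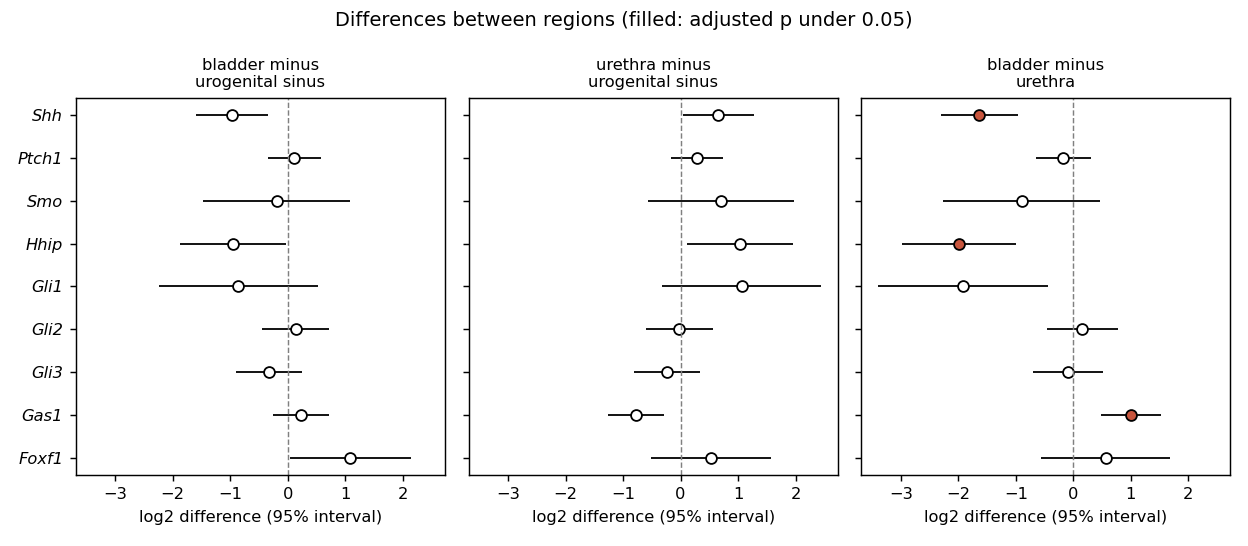
Log2 difference of each of the 9 genes (point) with its 95% interval (line) for bladder minus urogenital sinus, urethra minus urogenital sinus and bladder minus urethra, where filled points passed an adjusted p of 0.05. Filled points stand only at Shh (-1.63), Hhip (-1.995) and Gas1 (1.00), all in bladder minus urethra.

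Hhip, a membrane protein that binds and sequesters the ligand, followed the same order as Shh. It stood at 9.11, 9.50 and 10.22 on the bladder arrays, 11.12, 11.81 and 11.87 on the urethra arrays, 10.81, 10.16, 9.93 and 11.36 on the sinus arrays, and 9.38, 8.85 and 9.38 on the newborn arrays. The urethra arrays lay above all bladder arrays, and the sinus arrays overlapped with both. Hhip was lower in the bladder than in the urethra by -1.995 (SE 0.44, 95% interval -2.98 to -1.01, adjusted p = 0.0376), or 3.99-fold. The bladder differed from the sinus by -0.96 (SE 0.41, adjusted p = 0.277) and the urethra from the sinus by 1.04 (SE 0.41, adjusted p = 0.439), neither called. Hhip was tested with 4 probe sets, and between bladder and urethra all 4 were negative and 3 were called: the others gave -1.93 (adjusted p = 0.0169), -1.45 (adjusted p = 0.0221) and -1.32 (adjusted p = 0.558). The call on the main probe set held in 7 of 21 settings, with a range of -2.30 to -1.53. Leaving out any 1 bladder array, any 1 urethra array or sinus replicate 2 ended it (adjusted p = 0.0519 to 0.140), as did quantile normalization (-1.71, adjusted p = 0.0930).

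Gas1, a membrane-anchored coreceptor that helps cells bind Shh, ran the other way. Its values were 14.33, 14.13 and 14.19 on the bladder arrays, 13.26, 12.90 and 13.49 on the urethra arrays, 13.72, 13.88, 14.42 and 13.93 on the sinus arrays, and 14.18, 12.75 and 12.20 on the newborn arrays. Every urethra array lay under every bladder and every sinus array, and the bladder overlapped with the sinus. Gas1 was higher in the bladder than in the urethra by 1.00 (SE 0.23, 95% interval 0.48 to 1.52, adjusted p = 0.0454), or 2.00-fold. In the urethra it differed from the sinus by -0.77 (SE 0.22, 95% interval -1.26 to -0.28, adjusted p = 0.269), which was not called. The call held in 5 of 21 settings. Leaving out any 1 bladder array, any 1 urethra array, or sinus replicate 2 or 7 ended it (adjusted p = 0.0550 to 0.139). With title style as a block the difference was -0.33 (adjusted p = 0.880). That block links bladder and urethra only through the newborn arrays, 1 per style, and these spread from 12.20 to 14.18. The other Gas1 probe sets gave 1.03 (adjusted p = 0.278) and 0.26 (adjusted p = 0.859) for bladder minus urethra. The mean of 8 mesenchymal genes ran from 13.72 to 13.77 in the bladder, 13.54 to 13.67 in the urethra and 13.15 to 13.61 in the sinus. It was highest in the bladder as well, although 1 of the 8 genes was called higher there than in the urethra and 2 lower, against 4.33% of all genes called. Its part in the Gas1 difference was not tested.

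Gli1, the Gli factor whose transcription depends on the signal, had the widest spread of the 9 genes in the sinus. It stood at 9.28, 8.41 and 7.68 on the bladder arrays, 10.50, 10.78 and 9.85 on the urethra arrays, 10.31, 10.15, 8.81 and 7.97 on the sinus arrays, and 8.40, 8.41 and 8.83 on the newborn arrays. All urethra arrays lay above all bladder and newborn arrays, and the sinus arrays ran from the one range to the other. The difference between bladder and urethra was -1.92 (SE 0.66, 95% interval -3.39 to -0.45, adjusted p = 0.125), which was not called in this or any of 21 other settings, where it ranged from -2.33 to -1.36. The urethra differed from the sinus by 1.06 (SE 0.62, adjusted p = 0.598), and the bladder from the sinus by -0.86 (SE 0.62, adjusted p = 0.488).

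Ptch1, the receptor, had region means close to each other on its main probe set. It stood at 15.20, 15.34 and 15.19 on the bladder arrays, 15.19, 15.67 and 15.39 on the urethra arrays, 15.10, 14.86, 15.03 and 15.52 on the sinus arrays, and 14.05, 13.72 and 14.16 on the newborn arrays. The 3 regions overlapped, and each lay above all newborn arrays. On this probe set, with the arrays as deposited, the 95% intervals were -0.66 to 0.31 for bladder minus urethra, -0.34 to 0.57 for bladder minus sinus, and -0.17 to 0.74 for urethra minus sinus. The other 2 probe sets gave -1.37 and -1.02 for bladder minus urethra and -1.44 and -1.30 for bladder minus sinus, none called (adjusted p = 0.404 to 0.537), and other settings ranged from -0.85 to 0.30 for bladder minus urethra and from -0.87 to 0.70 for bladder minus sinus. Ptch1 was higher than in the newborn reference by 1.27 in the bladder (SE 0.30, adjusted p = 0.0187), 1.44 in the urethra (SE 0.30, adjusted p = 0.0116) and 1.15 in the sinus (SE 0.29, adjusted p = 0.0278). These calls rest on the main probe set. The 2 dimmer ones gave -0.18 and -2.05 in the bladder, 1.19 and -1.02 in the urethra and 1.26 and -0.75 in the sinus. None of these was called (SE 1.35 to 1.40).

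Gli2, the main activator among the Gli factors, and Gli3, which acts mainly as a repressor, also had region means close to each other on their main probe sets. Gli2 averaged 13.47 ± 0.22 in the bladder, 13.31 ± 0.36 in the urethra, 13.33 ± 0.39 in the sinus and 12.52 ± 0.55 in the newborn reference (SD, n = 3, 3, 4 and 3). Gli3 averaged 12.76 ± 0.33 in the bladder, 12.86 ± 0.28 in the urethra, 13.09 ± 0.35 in the sinus and 11.95 ± 0.34 in the newborn reference. On these probe sets both overlapped between all regions. For bladder minus urethra the intervals were -0.47 to 0.78 for Gli2 and -0.71 to 0.51 for Gli3. The region means exceeded the newborn mean by 0.78 to 0.94 for Gli2 and by 0.82 to 1.14 for Gli3, and none of these differences was called (adjusted p = 0.0755 to 0.248). Without newborn replicate 3, Gli3 was called in the sinus (1.34, adjusted p = 0.0444). A further Gli3 probe set, about as bright (mean over the 13 arrays 12.69, against 12.70), differed from this: it read 13.99 to 14.22 in the bladder, 12.60 to 12.86 in the urethra and 11.84 to 13.65 in the sinus. Its bladder arrays lay above all other region arrays, with 1.32 for bladder minus urethra (SE 0.40, adjusted p = 0.0885) and 1.29 for bladder minus sinus (SE 0.37, adjusted p = 0.108), neither called. It gave 3.01 for bladder minus newborn reference (adjusted p = 0.0052), a call that the main probe set did not share (0.82, adjusted p = 0.182). The remaining Gli3 probe set was dim, above the filter level on 5 of 13 arrays. It gave 0.48 for bladder minus urethra (adjusted p = 0.711) and 1.66 for bladder minus newborn reference (adjusted p = 0.303), neither called. The other Gli2 probe set read 10.02 to 10.67 in the bladder, 10.69 to 11.22 in the urethra and 9.94 to 10.59 in the sinus. Its urethra arrays thus lay above all other region arrays. The difference was -0.71 for bladder minus urethra (SE 0.30, adjusted p = 0.189) and 0.69 for urethra minus sinus (SE 0.28, adjusted p = 0.445), neither called.

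Smo, the transducer that Ptch1 holds inactive, overlapped between all groups on its main probe set. It stood at 13.13, 12.21 and 12.82 on the bladder arrays, 14.72, 13.32 and 12.81 on the urethra arrays, 13.88, 13.50, 12.52 and 11.76 on the sinus arrays, and 13.04, 12.30 and 12.02 on the newborn arrays. The difference was -0.90 for bladder minus urethra (SE 0.61, 95% interval -2.26 to 0.47, adjusted p = 0.381), -0.19 for bladder minus sinus (SE 0.57, adjusted p = 0.879) and 0.70 for urethra minus sinus (SE 0.57, adjusted p = 0.706). The main Smo probe set is of the class whose probes may also match related transcripts. Its other probe set read 10.66 to 11.73 in the bladder, 11.99 to 13.65 in the urethra, 10.50 to 11.80 in the sinus and 9.86 to 11.10 in the newborn reference, so here the urethra lay above all other groups. It gave -1.30 for bladder minus urethra (SE 0.50, adjusted p = 0.157) and 1.36 for urethra minus sinus (SE 0.47, adjusted p = 0.370), neither called.

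Foxf1, a forkhead factor of visceral mesenchyme and a known Hedgehog target, stood farthest above the newborn reference of the 9 genes in the bladder. Its values were 13.90, 14.61 and 14.80 on the bladder arrays, 13.54, 13.61 and 14.49 on the urethra arrays, 13.06, 12.62, 13.07 and 14.64 on the sinus arrays, and 10.69, 10.42 and 10.12 on the newborn arrays. The lowest region array, sinus replicate 2, was above the highest newborn array, and the regions overlapped with each other. Foxf1 was higher than in the newborn reference by 4.03 in the bladder (SE 0.71, adjusted p = 0.00383, 16.3-fold), 3.47 in the urethra (SE 0.71, adjusted p = 0.0100, 11.1-fold) and 2.94 in the sinus (SE 0.69, adjusted p = 0.0187, 7.67-fold). These calls held in 23 of 23 other settings in each region. A dimmer Foxf1 probe set, above the filter level on 8 of 13 arrays, gave 0.94 (adjusted p = 0.559), 2.41 (adjusted p = 0.158) and 1.20 (adjusted p = 0.503) for the same comparisons, in the same direction and not called. The bladder differed from the sinus by 1.09 (SE 0.47, 95% interval 0.04 to 2.14, adjusted p = 0.274), and sinus replicate 7, at 14.64, lay within the bladder range. The mean of 9 smooth muscle genes was 10.12 on that array, 8.43 to 8.82 on the other sinus arrays and 11.07 to 11.76 in the bladder. Its part in the Foxf1 values was not tested. The bladder differed from the urethra by 0.56 (SE 0.50, 95% interval -0.56 to 1.68, adjusted p = 0.498). The dimmer probe set gave -0.26 for bladder minus sinus (adjusted p = 0.854) and -1.48 for bladder minus urethra (adjusted p = 0.230).

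Against the newborn reference, 4 of the 9 genes were called in the bladder (Shh, Ptch1, Gas1 and Foxf1), against 17.0% of all genes, 4 in the urethra (Shh, Ptch1, Hhip and Foxf1), against 13.2%, and 3 in the sinus (Shh, Ptch1 and Foxf1), against 13.8%. All these calls were of higher values in the region. Groups without overlap numbered 5 in the bladder, against 51.0% of all genes, 6 in the urethra, against 40.9%, and 5 in the sinus, against 32.0%. The median difference of the 9 genes was 0.94 in the bladder, 1.44 in the urethra and 1.14 in the sinus, while over all genes it was -0.27, 0.06 and -0.01. The 3 comparisons share the newborn arrays. Hhip was higher in the urethra than in the newborn reference by 2.40 (SE 0.63, adjusted p = 0.0319), against 0.41 (SE 0.63, adjusted p = 0.698) in the bladder and 1.36 (SE 0.61, adjusted p = 0.192) in the sinus. Of its other probe sets, 2 were called in the sinus (2.00 with adjusted p = 0.0174, and 2.24 with adjusted p = 0.00306), and the second of these was called in the bladder too (1.29, adjusted p = 0.0472). The urethra call was lost without bladder replicate 6, urethra replicate 2 or urethra replicate 6 (adjusted p = 0.0522, 0.0703 and 0.0795). Gas1 was higher by 1.17 in the bladder (SE 0.33, adjusted p = 0.0364), although newborn replicate 1, at 14.18, lay within the bladder range, and this call held in 13 of 23 settings. It was lost without any 1 bladder array or without newborn replicate 2 or 3 (adjusted p = 0.0593 to 0.162 over these arrays). Without bladder replicate 6 the bladder call of Ptch1 was lost too (adjusted p = 0.0541), which left Shh and Foxf1. In the sinus, Gas1 differed by 0.95 (SE 0.32, adjusted p = 0.0847) and was not called. Leaving out 1 array gave 0.52 (without newborn replicate 3, adjusted p = 0.368) to 1.51 (without newborn replicate 1, adjusted p = 0.0102), and it was also called without sinus replicate 1 (1.03, adjusted p = 0.0488). Gli1, Gli2, Gli3 and Smo were called in none of the 3.

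**Figure D4:**
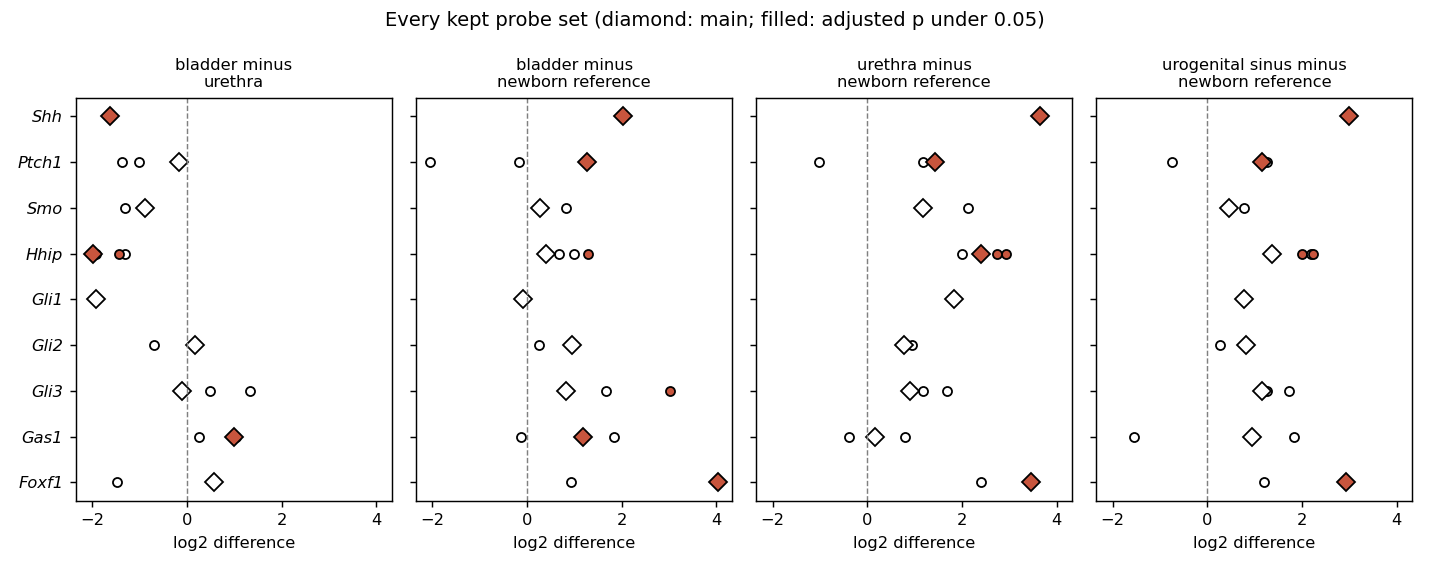
Log2 difference of every kept probe set of the 9 genes for bladder minus urethra and for each region minus the newborn reference, where diamonds are the main probe sets, circles the others, and filled symbols passed an adjusted p of 0.05. The 4 Hhip probe sets fall together on the negative side for bladder minus urethra (-1.995 to -1.32), whereas those of Ptch1 spread to both sides of 0 against the newborn reference (-2.05 to 1.27 in the bladder). The Ptch1 probe sets other than the main one are dimmer.

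Other pathway genes, in 4 lists, showed where else the regions differed. Of 6 tested genes for other ligands and ligand release, 4 other receptors and coreceptors, and 13 signal transducers, 0 were called in any comparison between regions. At an unadjusted p under 0.05, limma gave 2, 1 and 3 of them for bladder minus urethra, against 24.3% (3655) of all genes, 2, 1 and 1 for bladder minus sinus, against 17.2%, and 0, 0 and 2 for urethra minus sinus, against 10.4%. In these 3 lists the genes with the smallest p for bladder minus urethra were Disp1, which releases the ligand (-1.56, SE 0.52, adjusted p = 0.119), the coreceptor Cdon (0.96, SE 0.42, adjusted p = 0.198) and the ciliary kinesin Kif7 (-1.43, SE 0.42, adjusted p = 0.0864). For bladder minus sinus they were the secreted protein Scube3 (-1.95, adjusted p = 0.103), the endocytic receptor Lrp2 (-1.94, adjusted p = 0.152) and the kinase Stk36 (-1.01, adjusted p = 0.229). For urethra minus sinus they were the ligand Dhh (-1.36, adjusted p = 0.548), Lrp2 (-1.22, adjusted p = 0.553) and the Gli-binding repressor Sufu (0.69, adjusted p = 0.269).

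Of 11 tested genes reported to respond to Hedgehog, 1 was higher and 2 were lower in the bladder than in the urethra, against 4.33% of all genes called. Their median was -1.23, against -0.25 for all genes. Likewise 1 was higher and 2 lower than in the sinus, against 2.54% of all genes called, with a median of -1.38 against -0.19. The lower genes were the forkhead factors Foxf2 and Foxd2. Foxf2 averaged 9.77 ± 0.06 in the bladder, 12.79 ± 0.18 in the urethra and 11.15 ± 0.58 in the sinus (SD, n = 3, 3 and 4). None of these groups overlapped with another, and the difference was -3.02 for bladder minus urethra (SE 0.33, adjusted p = 0.00264) and -1.38 for bladder minus sinus (SE 0.31, adjusted p = 0.0486). The urethra stood 1.64 above the sinus (SE 0.31, adjusted p = 0.119), which was not called. Foxd2 averaged 7.60 ± 0.06 in the bladder, 11.23 ± 0.33 in the urethra and 10.76 ± 0.32 in the sinus, with a difference of -3.63 for bladder minus urethra (SE 0.30, adjusted p = 0.0017) and -3.16 for bladder minus sinus (SE 0.28, adjusted p = 0.0029). The higher gene was Hsd11b1, an enzyme that regenerates active glucocorticoid, at 8.36 ± 0.12 in the bladder, 6.66 ± 0.80 in the urethra and 6.20 ± 0.30 in the sinus, by 1.70 against the urethra (SE 0.39, adjusted p = 0.0428) and 2.16 against the sinus (SE 0.37, adjusted p = 0.0187). All sinus arrays were under the filter level for Hsd11b1, and so was the urethra mean, with urethra arrays from 6.18 to 7.58. The sizes of both differences are therefore uncertain. Between urethra and sinus 0 of the 11 were called, and 2 had an unadjusted p under 0.05, against 10.4% of all genes.

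Against the newborn reference, 17.0% of all genes were called in the bladder, 13.2% in the urethra and 13.8% in the sinus, higher and lower together. Beside these shares, 1 of the 13 signal transducers was higher in the bladder, 4 in the urethra and 3 in the sinus, with 0 lower. Sufu, named after its values were seen, was the one called in all regions, by 1.34 in the bladder (SE 0.30, adjusted p = 0.0138), 1.78 in the urethra (SE 0.30, adjusted p = 0.0036) and 1.09 in the sinus (SE 0.29, adjusted p = 0.0353). The others were Kif7 and Stk36 in urethra and sinus, and the ciliary receptor gene Gpr161 in the urethra. Of the 11 responsive genes, beside the same shares of all genes, 0 were higher and 2 lower in the bladder. In the urethra 3 were higher and 1 lower, and likewise in the sinus. The higher genes were Foxf2, Foxd2 and the growth factor gene Bmp4 in urethra and sinus, and the lower ones Hsd11b1 in every region and Foxd2 in the bladder.

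The 2 stages were then compared over the 5 arrays of stage 22 and the 5 of stage 21, with region as a covariate, a comparison added after the values had been seen. None of the 9 genes was called, as for all genes (0%), while limma gave 3 of the 9 an unadjusted p under 0.05, against 25.5% (3830) of all genes. Gli1 averaged 8.55 at stage 22 and 10.20 at stage 21, with a difference within regions of -1.37 (SE 0.30, adjusted p = 0.0770). In each of the 3 regions every stage 22 array was below every stage 21 array. Few arrays bear on this, since the bladder has 1 array of stage 21 and the urethra 1 of stage 22. The share of all genes separated in this way is not given here. Smo averaged 12.43 at stage 22 and 13.71 at stage 21, a difference of -1.19 (SE 0.32, adjusted p = 0.0865), again with all stage 22 arrays of a region below those of stage 21 on the main probe set. On the other Smo probe set, bladder replicate 8 of stage 22 (11.73) lay above bladder replicate 2 of stage 21 (11.57). Foxf1 averaged 14.32 at stage 22 and 13.35 at stage 21, a difference of 0.93 (SE 0.28, adjusted p = 0.101). The dimmer Foxf1 probe set did not share this direction. Its stage 22 arrays lay below those of stage 21 in the bladder (7.57 and 6.39 against 7.74) and the urethra (8.04 against 8.83 and 9.25). In the sinus they lay between them (7.46 and 7.34 against 9.11 and 6.07). Shh differed by -0.0024 (SE 0.24) and Ptch1 by 0.13 (SE 0.17). The Gapdh control probe sets, whose log2 ratio of 3' to 5' signal grows as RNA or its amplified copy gets shorter, gave 4.54 to 5.26 at stage 22 and 2.71 to 4.59 at stage 21. Its part in the Gli1 and Smo differences was not tested.

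**Figure D5:**
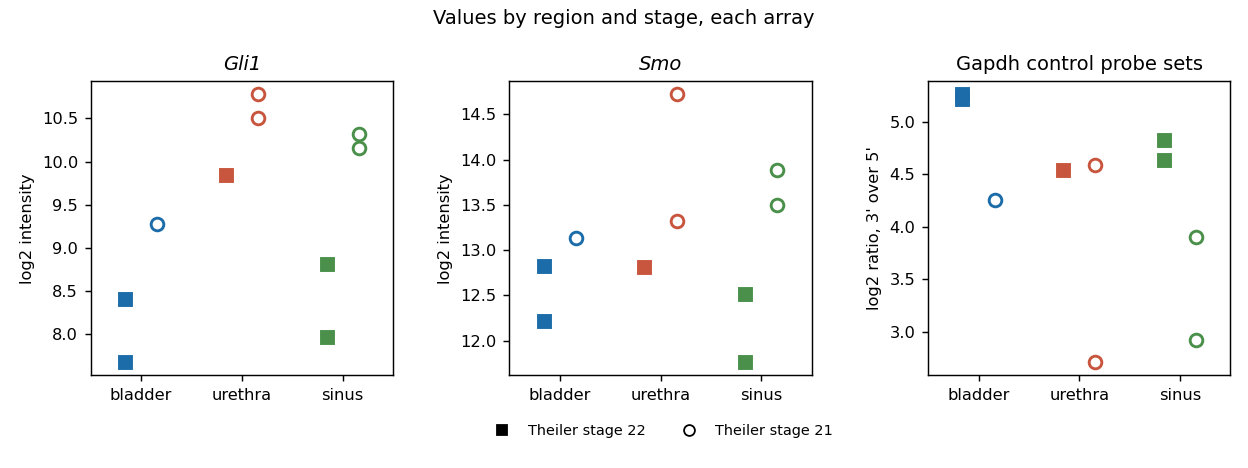
Log2 intensity of the main probe sets of Gli1 (left) and Smo (middle) and the log2 ratio of 3' to 5' Gapdh control signal (right) on each region array, by region, with filled squares for Theiler stage 22 and open circles for stage 21. In each region the stage 22 arrays lie below the stage 21 arrays for both of these probe sets, and the Gapdh ratio is 4.54 to 5.26 at stage 22 and 2.71 to 4.59 at stage 21.

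Among the other 15018 genes, the profiles over the 10 region arrays most like that of Shh were those of the phosphatase gene Ptpn14 (Pearson r = 0.983), Dtx3l (0.962) and Patj (0.958). Hhip came at position 240 with 0.834, Gli1 at 2618 with 0.576, and Smo at 3900 with 0.479. Ptch1 was at 7094 with 0.208, Gli3 at 7570 with 0.166 and Gli2 at 9165 with 0.001. Foxf1 was at 10860 with -0.198, and Gas1 near the opposite end with -0.768. Gli1 was most like Hic1 (0.987), Eif4a1 (0.985) and Ubtf (0.980), and among the 9 genes most like Smo (0.775). Gas1 (-0.738) and Foxf1 (-0.662) ran against Gli1, and Ptch1 stood at -0.039. Foxf1 was most like Cltc (0.930), Cct8 (0.922) and Dek (0.914). These correlations describe 10 arrays that share regions, stages, amplification and scaling, and they were chosen as the highest of all genes.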

How the data were processed

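Per the labels' protocols, the RNA went through 2 rounds of amplification and was then labelled with biotin. The values are linear intensities of 45101 probe sets on 13 arrays, deposited as 1 table. GCOS, an Affymetrix program, is named in the submitters' processing notes. Its settings and the genome build were not given in the sources used here. With a 2% trimmed mean that was equal on all arrays, the deposited intensity had already been scaled, and no further scaling was applied. The number of arrays limits the precision.

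Intensities were floored at the 20th percentile (50.23, or 5.65 in log2) and log2 transformed. Of 45037 probe sets other than 64 controls, 34945 carried 1 gene symbol, 932 several and 9160 none; 34741 matched the RefSeq gene table (GRCm38.p6) and 0 symbols changed. Probe sets above the 40th percentile (167.76, or 7.39 in log2, the filter level) on at least 3 arrays were kept (27463 with 1 symbol, 21 of the 23 described here), and the brightest stood for each gene. limma 3.58.1 in R 4.3.3 (lmFit, eBayes with intensity trend) fitted the 10 region arrays together (7 residual and 2.83 prior degrees of freedom). For the reference comparisons the 3 newborn arrays entered as 1 averaged sample, on the assumption that it varies as the region samples do. P-values are two-sided and Benjamini-Hochberg adjusted over 15019 genes. The fits were tested on simulated data.

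The 9 genes, the pathway and marker lists and the tests were chosen with earlier results of these data known. The genes named are the 9 with every kept probe set, Actg2, up to 4 called genes of each pathway list per region comparison (or that with the smallest p), and the 3 genes most like Shh, Gli1 and Foxf1. Named besides are Krt8 and Krt5 of the epithelial list, and the signal transducers and responsive genes called against the newborn reference. Alternatives covered quantile normalization, median centring, other floors, no filter, averaged probe sets, no intensity trend, stage as covariate, blocks for the number or style of the title, 3 separate newborn arrays, and arrays left out. The fit with a block for title style also entered the newborn arrays as 3 separate samples.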

Additional observations from a re-analysis of the deposited data

How the results depend on the processing

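Between bladder and urogenital sinus, 1 gene of the 9 (Shh, -1.22, adjusted p = 0.0379) was called with quantile normalization, against 0 otherwise. Between bladder and urethra, where 3 were called, 1 was called with quantile normalization, without the filter, with probe sets averaged and without both arrays numbered 1; 0 were called with arrays centred on their medians, with the number as a replicate block and with title style as a block; leaving out 1 array gave 0 to 3. Against the newborn reference, leaving out 1 array gave 2 to 4 in the bladder (4 in all arrays), 3 to 4 in the urethra (4) and 3 to 4 in the sinus (3), and in the sinus 6 were called with title style as a block and 5 with the newborn arrays as 3 samples. The fit with the title style block also took the newborn arrays as 3 samples. Between stages 1 gene, Gli1 (adjusted p = 0.0473), was called with no floor other than 1, against 0. Among the called values, those that changed sign were Gas1 for bladder minus urethra with title style as a block (-0.33), Ptch1 for bladder minus newborn reference with probe sets averaged (-0.32) or by its other probe sets (-0.18 and -2.05), Ptch1 by 1 probe set in the sinus (-0.75) and the urethra (-1.02), and Gas1 by 1 probe set in the bladder (-0.12), beside Shh in each region by its probe set that was not kept (-1.42 in the bladder, -0.31 in the urethra and -0.66 in the sinus). Values not called changed sign as well, among them Gas1 for urethra minus sinus (-0.77) with title style as a block (0.60), and with probe sets averaged Foxf1 for bladder minus urethra (0.56) at -0.46 and Ptch1 for bladder minus sinus (0.12) at -0.87. The cause of these sign changes was not tested. The Ptch1 probe sets other than the main one are dimmer. Over all genes, calls ranged from 46 (without bladder replicate 6) to 766 (without both arrays numbered 1) for bladder and sinus, where 382 were called, from 0 to 22 for urethra and sinus (2), from 55 (title style as a block) to 1292 (without sinus replicate 1) for bladder and urethra (651), from 1776 to 5390 for the bladder and newborn reference (2557), from 1393 to 4196 for the urethra (1987) and from 1459 to 4327 for the sinus (2076), the highest 3 with the newborn arrays as 3 samples. Between stages 359 genes were called with no floor other than 1, against 0.

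Median centring moved the median difference of all genes by 0.59 for bladder minus sinus, 0.12 for urethra minus sinus, 0.47 for bladder minus urethra, 0.84 for bladder, 0.37 for urethra and 0.25 for sinus minus newborn reference; quantile normalization moved it by 0.23, 0.01, 0.23, 0.36, 0.10 and 0.10. Within the title style that holds 2 bladder and 3 sinus arrays, Shh differed by -0.92 (bladder minus sinus), Hhip by -0.996, Gli1 by -0.92 and Foxf1 by 1.34; within the style with 1 of each, by -1.18, -1.15, -0.29 and 0.16.

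Arrays with the same number did not deviate together throughout. The correlations of their deviations from the region means ran from -0.17 (sinus and urethra 2), the sole negative value, to 0.36 (sinus and urethra 6). For arrays with different numbers they ran from -0.51 (bladder 2 and sinus 7) to 0.41 (sinus 7 and urethra 6). With the number as a replicate block, Shh differed by -1.46 between bladder and urethra (adjusted p = 0.0612), Hhip by -2.29 (adjusted p = 0.0806) and Gas1 by 0.96 (adjusted p = 0.140).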
